A study of Mus musculus with 8 samples.

Results

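The 8 genes described here encode complement proteins and their regulators: the classical pathway proteins *C1s1*, *C4b* and *C2*, the central component *C3*, the alternative pathway protease *Cfb*, and the regulators *Serping1*, *Cd55* and *Cd59a*. They were chosen by symbol out of 30406 genes listed in every library, and all 8 were listed. *Cfb* was chosen because its answer to nitric oxide had been seen to differ between β-cells and the other endocrine cells, so that contrast is given for *Cfb* as a description, with no test. The data are single-cell RNA counts from islets of C57BL/6 mice (C57BL6/J per the study's methods), cultured for 18 h in 4 conditions with 2 replicates each. Islets were left untreated, given the cytokines IL-1β (10 U/mL) and IFN-γ (150 U/mL), given both cytokines with 2 mM NMMA (NG-monomethyl-L-arginine, which blocks nitric oxide synthases), or given NMMA alone. Per the study's methods, each replicate was a pool of islets from 10 male mice of 12 to 16 weeks, then divided among the 4 conditions. A replicate number thus marks 1 pool. The 2 replicates were also counted with different software versions and gene annotations, so the spread between replicates holds both pool and counting.

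Complement is a set of plasma and cell surface proteins that tags cells and microbes for removal. In the classical pathway the protease C1s, within the C1 complex, cleaves C4 and C2, whose fragments form an enzyme that cleaves C3; in the alternative pathway, factor B (the product of *Cfb*) binds deposited C3b and becomes the protease of a second such enzyme. The liver makes most circulating complement, but many cell types transcribe these genes after IFN-γ or IL-1, and host cells limit the cascade with C1 inhibitor (*Serping1*), which inactivates C1r and C1s, with CD55, which takes C3-cleaving enzymes apart, and with CD59, which blocks the terminal pore. IL-1β with IFN-γ also makes mouse β-cells express *Nos2*, the inducible nitric oxide synthase, which is the enzyme that NMMA blocks.

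In the GRCm38 (mm10) assembly, 4 of the 8 genes lie on chromosome 17, all on the minus strand. *C4b* is at chr17:34728380-34743882, *Cfb* at chr17:34856374-34862518, *C2* at chr17:34862604-34898265 and *C3* at chr17:57203970-57228136. *C1s1* is at chr6:124530345-124542359, *Serping1* at chr2:84765387-84775444 and *Cd55* at chr1:130439027-130462744, all on the minus strand, and *Cd59a* is at chr2:104095801-104115354 on the plus strand. The sequence of 250 bases ahead of the annotated start was available from RefSeq (GRCm38.p6) for *C1s1*, *C3*, *Cd55* and *Cd59a*. Those of *C3* and *C1s1*, which rose with cytokines, and of *Cd59a*, which was lower with cytokines and NMMA, are shown 5′ to 3′ on the strand of the gene, in the order *C3* (chr17:57228137-57228386, minus strand), *C1s1* (chr6:124542360-124542609, minus strand) and *Cd59a* (chr2:104095551-104095800, plus strand). Capitals mark the single motif match found.
C3: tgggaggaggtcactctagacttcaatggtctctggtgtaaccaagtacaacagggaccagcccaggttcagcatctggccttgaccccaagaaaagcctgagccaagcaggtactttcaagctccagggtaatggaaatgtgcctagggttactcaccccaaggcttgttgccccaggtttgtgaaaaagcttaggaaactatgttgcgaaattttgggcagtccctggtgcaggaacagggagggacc
C1s1: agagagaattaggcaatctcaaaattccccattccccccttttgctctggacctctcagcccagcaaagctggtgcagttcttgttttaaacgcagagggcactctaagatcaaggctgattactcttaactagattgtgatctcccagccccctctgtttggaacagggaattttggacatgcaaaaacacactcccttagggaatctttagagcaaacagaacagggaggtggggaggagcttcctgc
Cd59a: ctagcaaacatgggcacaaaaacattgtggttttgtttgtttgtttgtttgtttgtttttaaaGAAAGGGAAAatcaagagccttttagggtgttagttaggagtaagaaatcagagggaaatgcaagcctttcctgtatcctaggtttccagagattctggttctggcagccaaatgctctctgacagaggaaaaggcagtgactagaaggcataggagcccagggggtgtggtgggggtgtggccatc

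Of regulatory motifs, 3 were searched on both strands: the IFN-γ activated site (TTCNNNGAA), the interferon-stimulated response element (GAAA, any 2 bases, then GAAA) and the NF-κB site. *Cd59a* held 1 match to the response element, GAAAGGGAAA, 187 to 178 bases ahead of the start. The windows of *C3*, *C1s1* and *Cd55* held none of the 3 motifs. Among 32851 promoters of the same length, 7.02% held the first motif, 2.98% the second and 7.25% the NF-κB site. A match is only a match of letters, and its absence says nothing about the factors.

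The 8 libraries held 26549922 to 50731370 UMIs (unique molecular identifiers, each counted as 1 RNA molecule). Of 17426 barcodes, 10876 passed the limits on genes and mitochondrial reads. In 2 libraries the kept cells had fewer UMIs, with a median of 3983 in untreated replicate 2 and 6246 in cytokines with NMMA replicate 2, against 14150 to 24136 in the others. Each library shared 2 to 6 kept barcodes with another. UMIs were summed per library within β-, α- and δ-cells, all non-β endocrine cells together (α- and δ-cells included), macrophages, endothelial cells and mesenchymal cells, named from marker genes. Except in mesenchymal cells (cluster 13), most cells of a class with and without cytokines lay in different clusters: 0 and 2 without, 1 and 7 with cytokines and 6 and 11 with cytokines plus NMMA for β-cells, 14 without and 14 and 19 with cytokines for macrophages, and 17 against 21 for endothelial cells. α-cells lay mostly in clusters led by *Hapln1* or *Tmsb15b2* without cytokines, by *Hspa1a* with cytokines and by *Trf* with cytokines plus NMMA, and δ-cells in clusters led by *Cela1* or *Nrsn1* without and by *Ltf* with cytokines. β-cell *Nos2* went from 0.0278 and 0 CPM untreated to 193 and 161.5 with cytokines and 460 and 468 with NMMA added. Levels are CPM, the UMIs of a gene relative to all UMIs of its class in the library, scaled to 1000000 with TMM factors, which assume that most genes do not differ. The 3′ counts do not scale with transcript length, so CPM compares 1 gene across samples; it also depends on what else a cell makes, and in untreated β-cells the 9 β-cell markers took 443200 to 474600 CPM. Values of the libraries stand below as replicate 1 and replicate 2. Changes are log2 ± SE from edgeR's quasi-likelihood test with Benjamini-Hochberg adjustment over all genes tested in the class, and a gene was called at an adjusted p below 0.05. In these sums fewer expressing cells and less RNA per cell cannot be told apart.

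At least 1 of the 8 genes was called higher with cytokines in every class, and 4 were in each endocrine class: *Serping1*, *C1s1*, *C2* and *C3*. In β-cells 7 of the 8 genes passed the filter on low counts and 4 were called higher with cytokines than untreated, against 23.9% of all genes called higher. In α-cells 6 passed and 4 were higher (13.0% of all genes), in δ-cells 5 and 4 (4.42%), and in the non-β endocrine cells together 6 and 4 (12.5%). In macrophages 2 passed and 1 was higher (3.82%), in endothelial cells 2 and 2 (5.99%), and in mesenchymal cells 5 and 1 (1.73%). No member was called lower with cytokines alone. Several members had few or no untreated UMIs and passed the filter through the treated groups, so these counts describe them and are not evidence about them as a set. *Cd55* passed in no class.

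**Figure D1:**
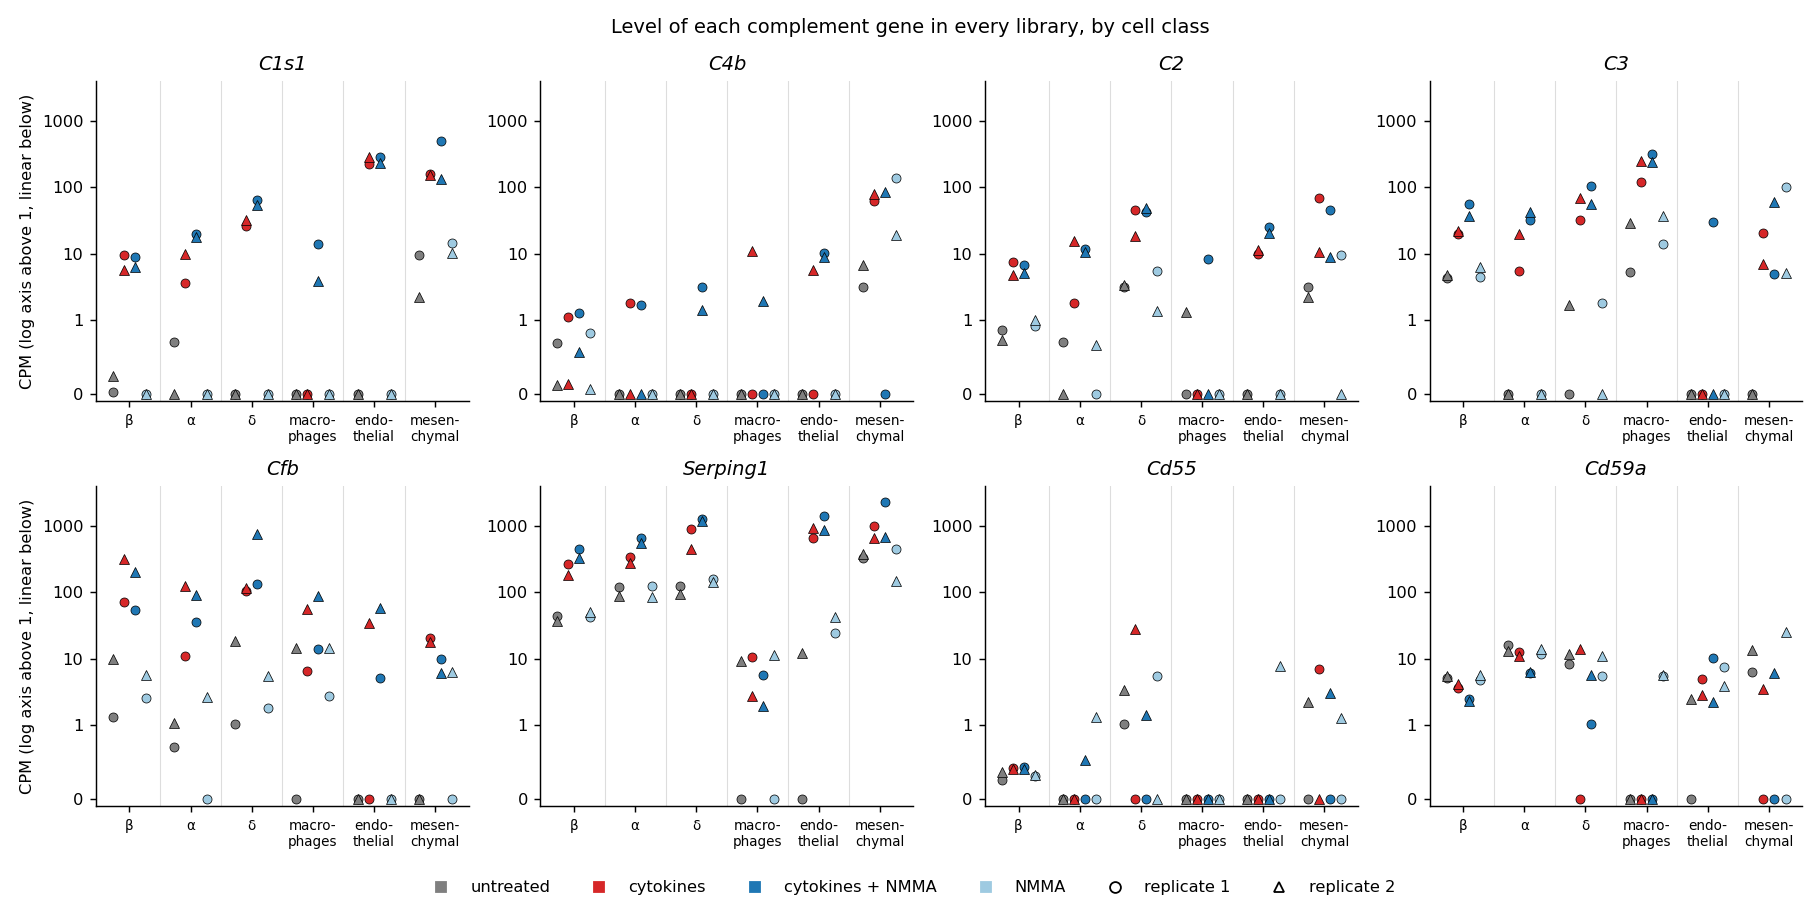
Level of each of the 8 genes (CPM, TMM scaled; the axis is logarithmic above 1 and linear below) in 6 cell classes, with 1 point per library, coloured by condition, circles for replicate 1 and triangles for replicate 2. *Serping1* of β-cells went from 43.6 and 36.9 CPM untreated to 269.5 and 181 with cytokines, while *Cd55* was near 0 in nearly every library.

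*C1s1* encodes the C1s protease, the active enzyme of the C1 complex. In β-cells it was at 0.0278 and 0.243 CPM untreated (5 UMIs in all), 9.48 and 5.62 with cytokines, 8.89 and 6.38 with cytokines and NMMA, and 0 in both libraries with NMMA alone. The cytokine-treated β-cells, with or without NMMA, thus lay above all β-cells without cytokines. The change with cytokines was 6.17 ± 0.63 (adjusted p = 2.95e-04), and with NMMA added it moved by 0.01 ± 0.40 (adjusted p = 0.988). α-cells had 0.701 and 0 CPM untreated, 3.64 and 9.93 with cytokines (2 and 11 UMIs), 19.96 and 18.1 with cytokines plus NMMA, and 0 with NMMA alone.

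With 1 untreated UMI in α-cells, the *C1s1* ratio to untreated was 18.3 with cytokines, with an exact 95% counting interval of 2.76 to 779 (adjusted p = 0.00632). That call was lost without untreated replicate 2 (adjusted p = 0.0564) or without cytokines replicate 2 (adjusted p = 0.145), and DESeq2 gave an adjusted p of 0.0603. δ-cells had no *C1s1* UMI without cytokines, 25.8 and 32.3 CPM with cytokines (4 and 7 UMIs from 11 and 12 cells), and 64.4 and 54.7 with cytokines plus NMMA. The rise in δ-cells was at least 16.8-fold, against 3 counts over the untreated group (adjusted p = 8.75e-04). In α-cells and δ-cells both *C1s1* levels with NMMA were above both levels with cytokines alone, by 1.31 ± 0.52 (adjusted p = 0.120) and 1.0 ± 0.45 (adjusted p = 0.378), neither past the threshold. Over all non-β endocrine cells *C1s1* was at 8.38 and 13.3 CPM with cytokines and 33.6 and 27.3 with NMMA added, a change of 1.42 ± 0.36 (adjusted p = 0.0230). That *C1s1* call was lost without cytokines replicate 1 (adjusted p = 0.103) or without either replicate of cytokines with NMMA (0.172 and 0.0777), and DESeq2 gave 0.203.

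With cytokines the highest *C1s1* levels of the 6 classes were those of endothelial and mesenchymal cells. Endothelial cells had no *C1s1* UMI in the 4 libraries without cytokines, 227 and 285 CPM with cytokines, and 284.5 and 237 with cytokines plus NMMA. With cytokines these UMIs came from 6 of 15 and 11 of 23 cells, and 2 cells held 15 and 14 of the 46 of replicate 1. Endothelial *C1s1* thus passed the filter on low counts only through the libraries with cytokines. The endothelial rise was at least 45.9-fold (146 UMIs against 0, adjusted p = 3.85e-07) and stayed past the threshold without any 1 of the 8 libraries. The endothelial cells without cytokines were all in cluster 17 (28 and 35 untreated, 38 and 30 with NMMA alone), and all but 1 of those with cytokines were in cluster 21 (14 and 23 with cytokines, 14 and 34 with cytokines plus NMMA). Cluster 22, left unnamed because mesenchymal markers outnumbered endothelial ones among its leading genes (*Rgs5*, *Pdgfrb* and *Plvap* among them), held cells without cytokines alone (19 and 16 untreated, 14 and 18 with NMMA). With cluster 22 added to the endothelial cells, a choice made after the data were seen, untreated *C1s1* was at 5.61 and 4.10 CPM (3 UMIs each) and the change with cytokines was 5.65 (adjusted p = 1.47e-08). NMMA moved endothelial *C1s1* by 0.01 ± 0.27 (adjusted p = 0.999). The endothelial sums also held more mesenchymal marker RNA with cytokines: the 9 mesenchymal markers rose from 18.7 to 71.9 CPM untreated to 331 to 476 with cytokines and 444 to 980 with cytokines plus NMMA, against 2023 to 3188 in mesenchymal cells with cytokines. Among these markers *Col1a1* and *Pdgfra* were at 0 in all 8 endothelial sums. *Pdgfrb* went from 0 and 5.33 CPM of total UMIs untreated to 172.5 and 103 with cytokines, *Acta2* from 0 and 0 to 121 and 48.8, and *Rgs5* from 66.8 and 13.3 to 177 and 118. The part of this RNA in endothelial *C1s1* and *Serping1* was not tested.

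Mesenchymal cells had 9.49 and 2.26 CPM of *C1s1* untreated, 159 and 154.5 with cytokines, 503 and 132 with cytokines plus NMMA, and 14.3 and 10.2 with NMMA alone. All 4 mesenchymal libraries with cytokines were above the other 4, with a change of 4.75 ± 0.83 for cytokines (adjusted p = 0.0193) and 5.75 ± 0.81 for cytokines with NMMA (adjusted p = 0.00409) against untreated. The first *C1s1* call was lost without either untreated replicate (adjusted p = 0.0510 and 0.161) or either cytokine replicate (0.0831 and 0.0829). In macrophages *C1s1* was at 0 except with cytokines and NMMA, at 14.1 and 3.87 CPM.

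*C2* encodes the protease of the classical C3-cleaving enzyme and lies beside *Cfb*. In β-cells it was at 0.861 and 0.730 CPM untreated, 7.49 and 4.82 with cytokines, 6.82 and 5.07 with cytokines plus NMMA, and 0.922 and 1.02 with NMMA alone. The groups with and without cytokines did not overlap, and the change with cytokines was 2.93 ± 0.30 (adjusted p = 1.02e-04). Adding NMMA moved β-cell *C2* by −0.05 ± 0.26 (adjusted p = 0.913). In δ-cells *C2* was at 3.15 and 3.36 CPM untreated, 45.2 and 18.5 with cytokines, and 43.3 and 49.1 with cytokines plus NMMA. The δ-cell levels with cytokines were 7 and 4 UMIs from 11 and 12 cells, with 5 of the 7 in 1 cell. The δ-cell change was 3.14 ± 0.72 (adjusted p = 0.0139), and it was past the threshold in 5 of 8 fits that left out 1 library, failing without untreated replicate 1 (adjusted p = 0.0955), cytokines replicate 1 (0.146) or untreated replicate 2 (0.0587).

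In α-cells *C2* was at 0.701 and 0 CPM untreated, 1.82 and 15.4 with cytokines (1 and 17 UMIs), and 11.6 and 10.7 with cytokines plus NMMA. The ratio of α-cell *C2* to its 1 untreated UMI was 25.4 (4.01 to 1058, exact counting interval), with an adjusted p of 0.00611 that rested on cytokines replicate 2 (0.471 without it) and on untreated replicate 2 (0.0593 without it). Endothelial *C2* had no UMI in the 4 libraries without cytokines, 9.86 and 11.4 CPM with cytokines and 25.4 and 20.3 with cytokines plus NMMA, too few for the filter. Mesenchymal *C2* was at 3.16 and 2.26 CPM untreated and 69.0 and 10.5 with cytokines, a ratio of 9.88 (2.24 to 90.2) that did not pass the test (adjusted p = 0.606). Macrophages had 0 to 1.34 CPM except 8.44 with cytokines and NMMA in replicate 1.

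*C4b* encodes a form of C4, the other target of C1s. It was low in the endocrine cells, at 0.694 and 0.122 CPM in untreated β-cells, 1.11 and 0.134 with cytokines, 1.28 and 0.573 with cytokines plus NMMA, and 0.820 and 0.0636 with NMMA alone. In each condition β-cell *C4b* was higher in replicate 1 than in replicate 2, and no change was called (0.56 ± 1.09 with cytokines, adjusted p = 0.709). The near-identical gene *C4a* was listed in replicate 2 only, where β-cells had 8 to 14 UMIs of it per library, so *C4b* is uncertain between replicates. Mesenchymal cells had the highest *C4b* of the 6 classes in 7 of 8 libraries, at 3.16 and 6.78 CPM untreated, 62.1 and 80.8 with cytokines, 0 and 84.2 with cytokines plus NMMA, and 138 and 19.2 with NMMA alone. The groups overlapped and no mesenchymal change was called (cytokines against untreated, 3.69 ± 1.69, adjusted p = 0.602), and 1 cell held 22 of the 29 *C4b* UMIs of NMMA replicate 1.

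*C3*, on which all pathways converge, rose with cytokines in each endocrine class, and the further step with NMMA was called in β-cells and in non-β endocrine cells together, but not in α- or δ-cells alone. β-cells had 4.28 and 4.87 CPM untreated, 20.1 and 22.1 with cytokines, 56.1 and 36.5 with cytokines plus NMMA, and 4.51 and 6.23 with NMMA alone. The 4 conditions fell in 3 separate ranges, with untreated and NMMA alone together at the bottom. The change in β-cells was 2.21 ± 0.23 with cytokines (adjusted p = 1.33e-04), and NMMA added a further 1.14 ± 0.22 (adjusted p = 0.00975). The second *C3* call was lost without cytokines replicate 1 (adjusted p = 0.0740) or without cytokines with NMMA replicate 1 (0.0574, with a change of 0.79).

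α-cells had no *C3* UMI in the 4 libraries without cytokines, 5.47 and 19.9 CPM with cytokines, and 32.2 and 42.1 with cytokines plus NMMA. The α-cell levels with cytokines were 3 and 22 UMIs, and 1 cell held 11 of the 22 and another 7. The α-cell rise was at least 11.8-fold with cytokines (adjusted p = 6.14e-04) and at least 37.4-fold with cytokines and NMMA (adjusted p = 1.94e-05). NMMA raised the α-cell *C3* estimate by 1.36 ± 0.42, with an adjusted p of 0.0558 that became 0.00319 with the replicate as a block and 0.0120 without cytokines replicate 2. δ-cells had 0 and 1.68 CPM of *C3* untreated (1 UMI), 32.3 and 69.3 with cytokines, 105 and 56.1 with cytokines plus NMMA, and 1.83 and 0 with NMMA alone. Their levels with cytokines were 5 and 15 UMIs from 11 and 12 cells, with 4 of the 5 in 1 cell. The δ-cell ratio to untreated was 91.7 (14.7 to 3799) with cytokines (adjusted p = 7.40e-04), and the levels with and without NMMA overlapped (0.60 ± 0.47, adjusted p = 0.660). Over all non-β endocrine cells *C3* was at 11.2 and 27.4 CPM with cytokines and 54.4 and 44.5 with cytokines plus NMMA, a change of 1.25 ± 0.33 (adjusted p = 0.0270) that was lost without cytokines replicate 1 (0.135) or either replicate of cytokines with NMMA (0.165 and 0.0741), and for which DESeq2 gave 0.151.

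Macrophages had the highest *C3* of the 6 classes, both untreated and with cytokines, though in untreated replicate 1 on 2 UMIs (5.26 CPM against 4.28 in β-cells). Their *C3* was at 5.26 and 29.5 CPM untreated, 120.5 and 247 with cytokines, 323.5 and 239.9 with cytokines plus NMMA, and 13.9 and 37.3 with NMMA alone. The groups with and without cytokines did not overlap. The macrophage change was 3.15 ± 0.65 with cytokines (adjusted p = 0.0451), lost without cytokines replicate 2 (0.0902) or either replicate of cytokines with NMMA (0.103 and 0.101), and it was 3.78 ± 0.65 with cytokines and NMMA against untreated (adjusted p = 0.0159), lost without either replicate of that group (0.0996 and 0.0742). In β-cells the 9 macrophage markers together stood at 4.58 to 10.1 CPM untreated, 18.8 to 24.2 with cytokines and 24.5 to 28.4 with cytokines plus NMMA, against 11490 to 11810 in macrophages with cytokines, and the 7 ductal markers at 589 to 632, 1171 to 1409 and 1054 to 1263 CPM. In α-cells the ductal markers stood at 2670 to 3267 CPM untreated, 3368 to 3591 with cytokines and 5814 to 10200 with cytokines plus NMMA, and the 9 β-cell markers at 8362 to 10460, 25570 to 38050 and 26990 to 57050 CPM. Ductal cells had 58.2 to 525.5 CPM of *C3* in the 4 libraries with at least 10 of them. The part of any of this RNA in the *C3* of β- and α-cells was not tested. Endothelial *C3* was at 0 in 7 libraries, with 6 UMIs (30.5 CPM) in cytokines with NMMA replicate 1. Mesenchymal *C3* rested on single cells: all 21 UMIs of NMMA replicate 1 (100.1 CPM) were in 1 cell.

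**Figure D2:**
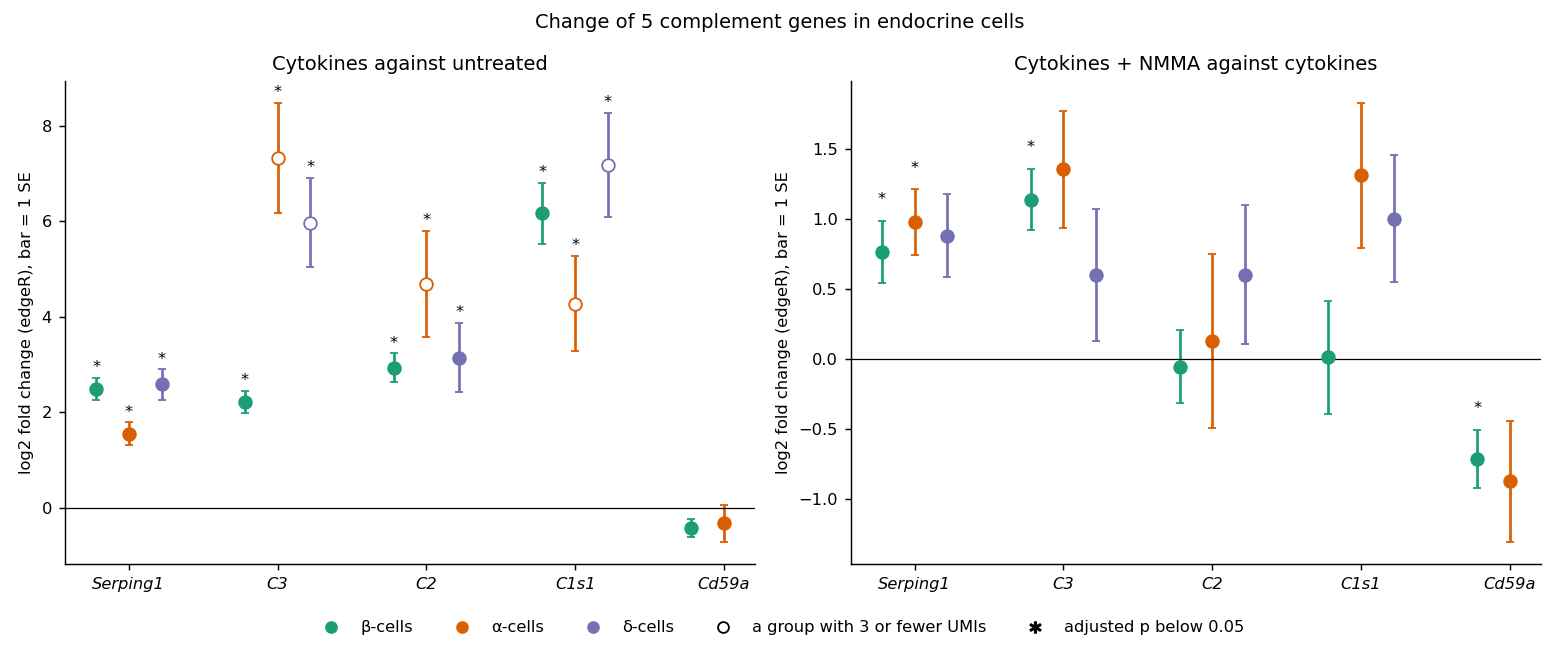
Log2 change ± 1 SE of *Serping1*, *C3*, *C2*, *C1s1* and *Cd59a* in β-, α- and δ-cells, for cytokines against untreated and for cytokines with NMMA against cytokines alone. Open points have a group of 3 UMIs or fewer, so that their size is not a bound, an asterisk marks an adjusted p below 0.05 (edgeR), and the panels differ in their vertical range; β-cell *C3* stood at 2.21 and then 1.14, while β-cell *C1s1* stood at 6.17 and then 0.01.

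*Cfb* encodes factor B, the protease of the alternative pathway. In β-cells it was at 1.31 and 9.79 CPM untreated, 72.7 and 323 with cytokines, 53.7 and 202 with cytokines plus NMMA, and 2.56 and 5.60 with NMMA alone. All 4 libraries with cytokines were above the 4 without. Within replicates the cytokine ratio was 55.7 and 33.0. The tests of endocrine *Cfb* against untreated use cytokine libraries on which the gene was chosen, so they are not independent of that choice. The change of 5.23 ± 1.60 missed the threshold without a block (adjusted p = 0.0591) and passed it with the replicate as a block (adjusted p = 4.17e-05, with 63.0% of all genes called in that fit) and by DESeq2 (1.64e-04).

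The *Cfb* levels differed between replicates by more than those of the other members with β-cell levels above 2 CPM. In β-cells replicate 2 was at 4.44 times replicate 1 with cytokines and 3.77 times with cytokines plus NMMA, where *C3*, *C2*, *C1s1*, *Serping1* and *Cd59a* were at 0.593 to 1.16 times. The annotated gene *Gm20547* (chr17:34856412-34882042, minus strand) shares 2246 exon bases with *Cfb*, 79.5% of them, and 171 of the 209 bases of its last exon. With *C2* it shares 1656 exon bases (42.8%), but only 9 of the 428 bases of the last *C2* exon. *Gm20547* was listed in replicate 1 only, with no UMI in any class, and its part in the difference between replicates was not tested. *Cfb* values are therefore compared within a replicate.

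In α-cells *Cfb* was at 0.701 and 1.09 CPM untreated, 10.9 and 123 with cytokines, 35.5 and 92.7 with cytokines plus NMMA, and 0 and 2.63 with NMMA alone. The ratio of α-cell *Cfb* to its 3 untreated UMIs was 66.8 (22.4 to 328), with an adjusted p of 0.0875 without a block, 2.4e-09 with it and 0.0167 without cytokines replicate 1. δ-cells had 1.05 and 18.5 CPM untreated, 103 and 115.5 with cytokines, 134 and 755 with cytokines plus NMMA, and 1.83 and 5.53 with NMMA alone. The δ-cell change with cytokines was 3.72 ± 1.63 (adjusted p = 0.312, and 0.00389 with the block), past the threshold without either replicate of cytokines with NMMA (0.0464 and 0.0178). Over all non-β endocrine cells *Cfb* was at 0.688 and 4.75 CPM untreated and 30.7 and 119 with cytokines (4.86 on the log2 scale, adjusted p = 0.0972, and 7.42e-17 with the block).

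Adding NMMA to cytokines went with lower *Cfb* in β-cells and higher *Cfb* in the non-β endocrine cells, the pattern for which the gene was chosen. Within replicates 1 and 2 the ratio of cytokines with NMMA to cytokines was 0.738 and 0.627 in β-cells and 2.16 and 2.24 in non-β endocrine cells, where the levels with cytokines plus NMMA were 66.2 and 267 CPM. The classes inside the second group did not all share that value: the ratio was 3.25 and 0.755 in α-cells, so that its replicates went opposite ways, and 1.30 and 6.53 in δ-cells. The make-up of the group moved too: δ-cells, which had higher *Cfb* CPM than α-cells with cytokines and NMMA, were 18.3% and 13.95% of non-β endocrine cells with cytokines (11 of 60 and 12 of 86 cells) and 37.1% and 29.7% with cytokines plus NMMA (59 of 159 and 38 of 128). The part of this share in the ratio was not tested.

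**Figure D3:**
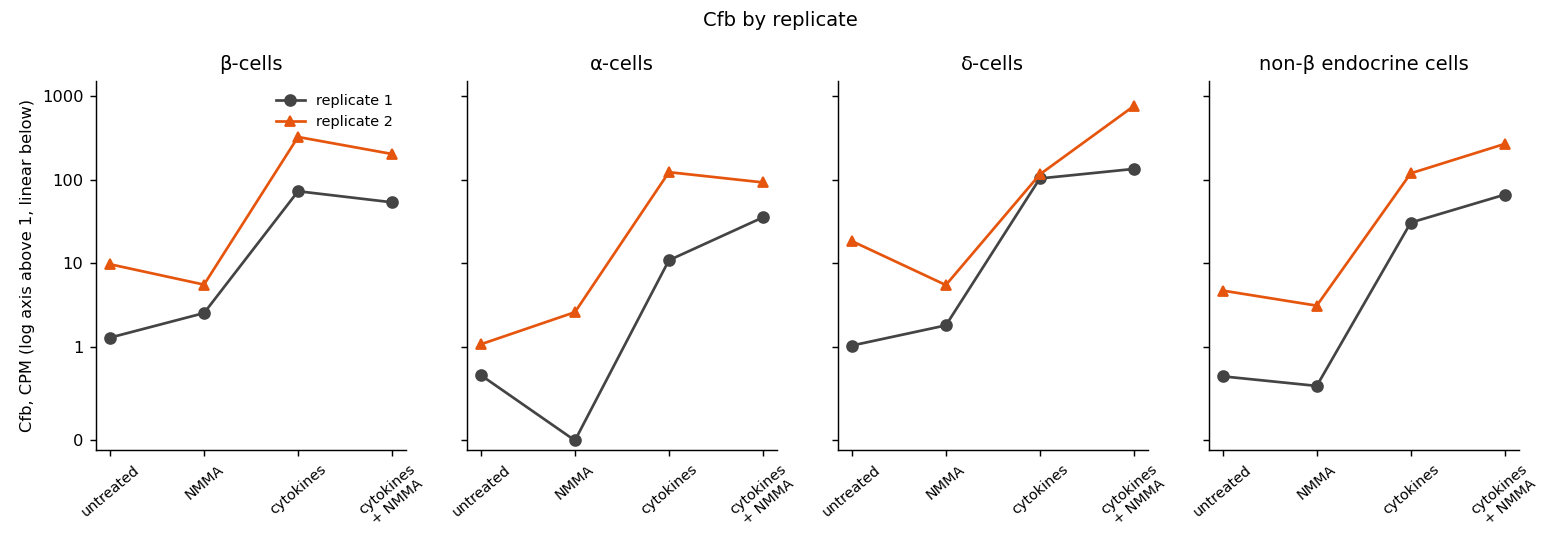
*Cfb* level (CPM, TMM scaled; logarithmic axis above 1, linear below) by condition in β-, α-, δ- and all non-β endocrine cells, with replicates 1 and 2 as separate points joined within a replicate. From cytokines to cytokines with NMMA both replicates fell in β-cells (72.7 to 53.7 and 323 to 202) and both rose in non-β endocrine cells (30.7 to 66.2 and 119 to 267); this contrast was not tested.

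Among the other classes, macrophages had 0 and 14.7 CPM of *Cfb* untreated, 6.46 and 55.6 with cytokines, 14.1 and 89.0 with cytokines plus NMMA, and 2.78 and 14.4 with NMMA alone. The change with cytokines was 1.60 ± 1.63 (adjusted p = 0.752, and 0.0282 with the block), and it was −0.50 without cytokines replicate 2. Against untreated, macrophage *Cfb* with cytokines and NMMA was 2.51 ± 1.47 (adjusted p = 0.496, and 7.8e-04 with the block). Endothelial cells had *Cfb* UMIs only in 3 libraries, all with cytokines (34.2 CPM in cytokines replicate 2, 5.08 and 58.6 with cytokines plus NMMA). Mesenchymal cells had none untreated and 20.7 and 17.6 CPM with cytokines, at least 4.05-fold, too few for the filter.

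*Serping1* encodes C1 inhibitor, a serpin that traps C1r and C1s, and it rose with cytokines in every class but the mesenchymal cells, where it was not called, and the macrophages, where it did not pass the filter. In β-cells it was at 43.6 and 36.9 CPM untreated, 269.5 and 181 with cytokines, 442 and 323 with cytokines plus NMMA, and 42.2 and 50.2 with NMMA alone. The 3 ranges (without cytokines, with cytokines, with cytokines plus NMMA) did not overlap. The change with cytokines was 2.48 ± 0.24 (adjusted p = 7.95e-05). NMMA added 0.77 ± 0.22 (adjusted p = 0.0426), a call that held in 1 of 8 fits that left out a library, with adjusted p from 0.0439 to 0.223: it was lost without untreated replicate 1 (0.0586) or 2 (0.0549), NMMA replicate 1 (0.0640) or 2 (0.0626), cytokines replicate 2 (0.187), and cytokines with NMMA replicate 1 (0.223) or 2 (0.0502).

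In α-cells *Serping1* was at 121 and 88.7 CPM untreated, 339 and 276 with cytokines, 658.5 and 548.5 with cytokines plus NMMA, and 124 and 85.3 with NMMA alone. The order of the conditions was that of β-cells, again without overlap between the 3 ranges. The α-cell changes were 1.54 ± 0.24 with cytokines (adjusted p = 2.58e-04) and a further 0.98 ± 0.23 with NMMA (adjusted p = 0.0133), the latter lost without cytokines with NMMA replicate 1 (0.0999) or cytokines replicate 2 (0.0681). δ-cells had 125 and 95.9 CPM untreated, 891 and 443.5 with cytokines, 1287 and 1168 with cytokines plus NMMA, and 161 and 142.5 with NMMA alone. The δ-cell change was 2.58 ± 0.32 with cytokines (adjusted p = 6.77e-05), and the step to cytokines with NMMA, 0.88 ± 0.30, was not called (adjusted p = 0.210) without a block and was with it (0.00192) or without cytokines replicate 1 (0.00801). Over all non-β endocrine cells that step in *Serping1* was 1.03 ± 0.23 (adjusted p = 0.0113), lost without cytokines with NMMA replicate 1 (0.112) or cytokines replicate 2 (0.0688).

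In endothelial cells *Serping1* went from 0 and 12.4 CPM untreated to 656 and 945.5 with cytokines and 1407 and 884 with cytokines plus NMMA, with 24.7 and 42.2 for NMMA alone. With cytokines its UMIs came from 8 of 15 and 15 of 23 cells. The endothelial change was 6.60 ± 0.57 (adjusted p = 1.07e-05), and NMMA moved it by 0.51 ± 0.36 (adjusted p = 0.999). The size of that change depends on which cells count as endothelial. The unnamed cluster 22, which had no cell with cytokines, was at 454 and 462.5 CPM of *Serping1* untreated and 606 and 416 with NMMA alone. With cluster 22 added, endothelial *Serping1* was at 258 and 204 CPM untreated, 645 and 930 with cytokines and 1376 and 868 with cytokines plus NMMA, and the change with cytokines was 1.77 (adjusted p = 2.96e-04). Mesenchymal cells had the highest untreated *Serping1* of the 6 classes, at 329 and 377 CPM, with 994 and 657 with cytokines, 2326 and 689 with cytokines plus NMMA, and 448 and 148 with NMMA alone; the change of 1.20 ± 0.65 was not called (adjusted p = 0.679). With cytokines and NMMA, mesenchymal *Serping1* was 2.07 ± 0.67 above untreated (adjusted p = 0.299, 0.0378 by DESeq2, and 0.0463 without cytokines with NMMA replicate 2). Macrophages had 0 to 11.5 CPM of *Serping1* in every library.

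*Cd59a* encodes mouse CD59, which blocks the membrane attack complex, and was the one member called lower in any comparison. In β-cells it was at 5.11 and 5.41 CPM untreated, 3.63 and 4.21 with cytokines, 2.45 and 2.29 with cytokines plus NMMA, and 4.82 and 5.60 with NMMA alone. The 3 ranges did not overlap. The step with cytokines, −0.43 ± 0.19, was not called (adjusted p = 0.0983, and 0.0419 with the block). Cytokines with NMMA were 1.14 below untreated (−1.14 ± 0.20, adjusted p = 0.00376), a call that held in all 8 fits that left out a library.

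The step in β-cell *Cd59a* from cytokines to cytokines with NMMA was −0.72 ± 0.21 (adjusted p = 0.0404), past the threshold in none of the 8 fits that left out a library (0.0564 to 0.158) and not by DESeq2 (0.183). α-cells had 16.1 and 13.1 CPM of *Cd59a* untreated, 12.8 and 10.8 with cytokines, 6.10 and 6.39 with cytokines plus NMMA, and 11.8 and 13.8 with NMMA alone. Here both values with cytokines and NMMA were the lowest of the 8, at −1.20 ± 0.37 against untreated (adjusted p = 0.0544, 0.0301 with the block, and as low as 0.0461 without 1 cytokine library). Over all non-β endocrine cells *Cd59a* fell from 16.2 and 13.2 to 4.16 and 6.74 CPM between untreated and cytokines plus NMMA (−1.43 ± 0.34, adjusted p = 0.0104), lost without untreated replicate 1 (0.108) or cytokines with NMMA replicate 1 (0.155) and not called by DESeq2 (0.214). In macrophages *Cd59a* was at 0 in 6 libraries, and in endothelial cells it was at 0 to 10.2 CPM.

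*Cd55* encodes decay-accelerating factor, and its transcripts were nearly absent from these sums. β-cells had 0.25 and 0.365 CPM untreated, 0.420 and 0.401 with cytokines, 0.426 and 0.409 with cytokines plus NMMA, and 0.307 and 0.318 with NMMA alone, which is 5 to 11 UMIs per library. The β-cell values with cytokines (0.401 to 0.426 CPM) lay above those without (0.25 to 0.365), on these few UMIs. *Cd55* did not pass the filter in any class, so no change in it was tested. Macrophages had no *Cd55* UMI in any library. In δ-cells the level of 27.7 CPM in cytokines replicate 2 was 6 UMIs, 5 of them in 1 cell.

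With NMMA added to cytokines, *Serping1* and *C3* were called higher in β-cells, *Serping1* in α-cells, and *Serping1*, *C3* and *C1s1* in the non-β endocrine cells together. In β-cells 6 of the 7 genes past the filter could be tested in that contrast (not *Cfb*), with 2 called higher and 1 lower, where 10.4% and 9.17% of all genes were. In α-cells 1 of 5 was higher (4.76% of all genes), in δ-cells 0 of 4 (0.551%), and in non-β endocrine cells 3 of 5 (5.01%). In macrophages 0 of 2 were called (0.116%), in endothelial cells 0 of 2 (0.0%) and in mesenchymal cells 0 of 5 (0.0%). Of the δ-cell members 2 (*Serping1* and *C1s1*) had an unadjusted p under 0.05, as had 0 in the last 3 classes, and DESeq2 called 0 in all 4 classes. In endothelial cells edgeR thus called no gene at all, with 251 at an unadjusted p under 0.05 and 0 called by DESeq2, and in mesenchymal cells 171 and 0. This contrast shares the cytokine libraries with the contrast of cytokines against untreated, so the values of the 2 are not independent. Against untreated, cytokines with NMMA gave 4 members higher and 1 lower in β-cells (12.9% and 9.88% of all genes), 4 higher in α-cells (5.74%) and δ-cells (5.32%), and 4 higher with 1 lower in non-β endocrine cells (7.08% and 3.16%). It gave 1 higher in macrophages (5.16%), 2 in endothelial cells (6.65%) and 1 in mesenchymal cells (1.9%).

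NMMA alone, against untreated, gave no call by edgeR or DESeq2 for any member in any class, and 2 of 33 fits had an unadjusted p under 0.05. In β-cells edgeR called 0 of 12764 genes for it (0.0%), with 933 at an unadjusted p under 0.05, and DESeq2 called 14. In that contrast β-cell *Serping1* stood at 42.2 and 50.2 CPM against 43.6 and 36.9, and *C3* at 4.51 and 6.23 against 4.28 and 4.87. The ranges overlapped for both.

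The response to cytokines was compared between β-cells and other classes in 1 model with the library as a block, over the classes as other minus β-cells. For non-β endocrine cells 1 of 7 members differed (2.54% of all genes): *C3*, by 4.61 ± 0.86 (adjusted p = 0.00237, and 0.0860 without cytokines replicate 2). That *C3* value rests on 1 untreated UMI in non-β endocrine cells, where the counting ratio was 96.3 (16.4 to 3888) against 4.03 (3.48 to 4.67) in β-cells. *Serping1* differed by −0.45 ± 0.19 between the same classes (adjusted p = 0.249). For macrophages 1 of 7 differed (6.03% of all genes): *Cfb*, by −3.31 ± 0.70 (adjusted p = 1.51e-04), and it was 3.69 without untreated replicate 2 (adjusted p = 1.0), which left no untreated *Cfb* UMI in macrophages. For endothelial cells 1 of 7 differed (5.32%): *Serping1*, by 4.31 ± 0.47 (adjusted p = 6.71e-17). With the unnamed cluster 22 added to the endothelial cells that *Serping1* difference was −0.53 (adjusted p = 0.261), so it rests on leaving that cluster out. For mesenchymal cells 0 of 8 differed (1.65%), with 2 at an unadjusted p under 0.05; DESeq2 was not run for these differences.

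Shares of cells with at least 1 UMI show how widely a gene was detected, once each cell was thinned to the same number of UMIs (9500 in β-cells, with 514 of 611 cells of untreated replicate 2 reaching it, for example). *Serping1* was detected in 31.7% and 28.2% of untreated β-cells, 80% and 68.8% with cytokines, 88.5% and 77.5% with cytokines plus NMMA, and 29.6% and 34.2% with NMMA alone. Without thinning these *Serping1* shares were 48.6% and 48.6%, 92.1% and 79.0%, 92.2% and 80.7%, and 53.2% and 57.4%. In macrophages 0 to 12.1% of cells per library had a *Serping1* UMI without thinning (4 of 33 cells with cytokines in replicate 1), and none did after thinning to 1500 UMIs.

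*Cfb* was detected in 1.0% and 5.25% of untreated β-cells, 28.1% and 49.1% with cytokines, and 26.2% and 39.2% with cytokines plus NMMA. *C3* was found in 3.07% and 4.86% of untreated β-cells, 8.92% and 7.90% with cytokines and 20.1% and 15.1% with cytokines plus NMMA, so that even with NMMA most β-cells gave no *C3* UMI at this depth. *C1s1* was found in 0 of 1598 and 0 of 514 untreated β-cells (upper bounds 0.231% and 0.715%) and in 7.21% and 3.33% with cytokines. These bounds cover counting error of cells alone.

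**Figure D4:**
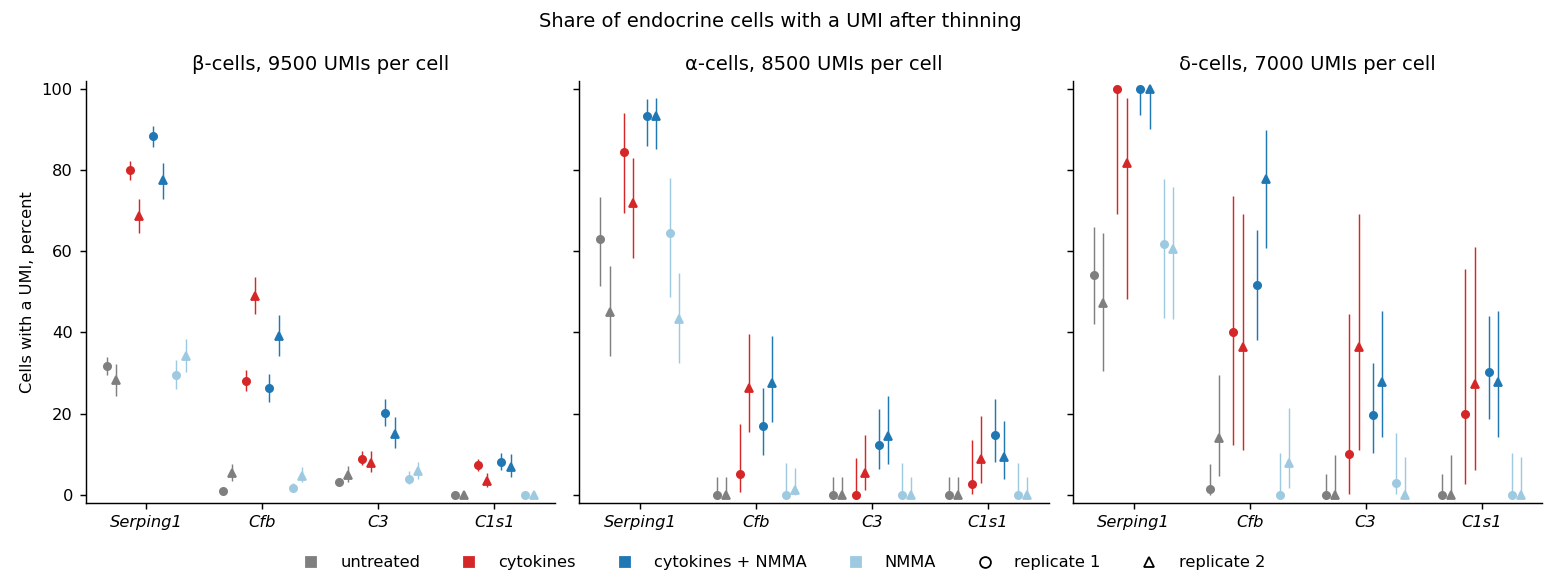
Percent of cells with at least 1 UMI of *Serping1*, *Cfb*, *C3* and *C1s1* after thinning each cell to a fixed number of UMIs (9500 in β-, 8500 in α- and 7000 in δ-cells), per library, with exact 95% (Clopper-Pearson) intervals that cover counting error only. β-cell *Serping1* went from 31.7% and 28.2% untreated to 80% and 68.8% with cytokines.

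A wider list of complement genes gave 40 besides the members. In β-cells 9 of them were tested for cytokines against untreated, with 2 higher, where 23.9% of all genes were called higher, and 1 lower. Their median change was −0.12, where the median of all genes was 0.00. The higher genes were *C1ra*, which encodes the partner protease of C1s (6.51 ± 0.40, adjusted p = 2.43e-05, from 0.694 and 0.791 CPM to 82.7 and 51.4), and *Cr1l*, a membrane regulator (0.58 ± 0.19, adjusted p = 0.0367). The *Cr1l* call was lost without cytokines replicate 1 (0.246), untreated replicate 2 (0.203) or NMMA replicate 1 (0.0521) or 2 (0.0512). The lower gene was *C8g*, for a chain of the terminal component C8 (−2.09 ± 0.32, adjusted p = 8.43e-04). In α-cells 2 of 6 were higher and 0 lower (median 0.07), in δ-cells 2 and 1 of 5 (0.05), and in endothelial cells 2 and 1 of 3 (0.91). In macrophages and mesenchymal cells 0 of 11 (0.01) and 0 of 5 (2.12) were called. There 4 and 1 had an unadjusted p under 0.05, and DESeq2 called 0 in both. Of all genes, 13.0% were called higher in α-cells, 4.42% in δ-cells, 5.99% in endothelial cells, 3.82% in macrophages and 1.73% in mesenchymal cells.

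*C1ra* rose in each endocrine class and in endothelial cells, as *C1s1* did: by 5.05 ± 0.37 in α-cells (adjusted p = 1.23e-07), by 4.80 ± 0.42 in δ-cells (adjusted p = 2.05e-06), and from 0 to 64.1 and 57.0 CPM in endothelial cells, at least 10.4-fold. *Clu*, for clusterin, a soluble inhibitor of the terminal pathway, rose in α-cells (1.66 ± 0.24, adjusted p = 1.15e-04) and in δ-cells (1.13 ± 0.24, adjusted p = 0.00923), the latter not without untreated replicate 1 (0.0936) or 2 (0.0982). *C8b*, for another chain of C8, was lower with NMMA added to cytokines in α-cells (−1.30 ± 0.27, adjusted p = 0.00677).

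The genes whose log levels were most like those of each member over 48 sums (6 classes in 8 libraries, 13266 genes) were named by Pearson's r as a description; the sums share libraries and classes. For *C1s1* they were *Cxcl1* (0.915), *Lif* (0.879) and *Nfkbiz* (0.858). For *C2* they were *C1ra* (0.860), *Nfkbiz* (0.858) and *C1s1* (0.840). For *C3* they were *Grina* (0.821), *Acod1* (0.798) and *H2-DMa* (0.773), and for *Cfb* the guanylate-binding genes *Gbp8* (0.813), *Gbp6* (0.812) and *Gbp10* (0.797). For *Serping1* they were *Tubb3* (0.887), *St5* (0.869) and *Il17rc* (0.852), for *C4b* *Postn* (0.825) and for *Cd59a* *Rab4a* (0.749). *Cd55* had too few UMIs to be ranked.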

How the data were processed

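Islet cells were profiled by droplet single-cell RNA-seq in 8 libraries, 2 per condition. The authors aligned and counted reads with Cell Ranger (versions 3.0.0 for replicate 1 and 6.0.0 for replicate 2 per the file headers; mm10 per the submitters' processing notes) and deposited raw UMI counts per gene and barcode. The 2 replicates list different annotations (31053 and 32285 genes).

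Barcodes with at least 200 genes, at most 5500 (replicate 1) or 6500 (replicate 2) genes and at most 10% mitochondrial UMIs were kept (10876). Cells were clustered with scanpy 1.11.5 and leidenalg 0.10.2 without the complement genes (2000 variable genes, 30 components, 20 neighbours, resolution 1) and named from fixed markers, so that "β-cells" stands for β-like clusters. Scrublet marked 100 doublets (0.919%), removed as an alternative only. Counts were summed per library and class (at least 10 cells) and tested with edgeR 4.0.16 (filterByExpr, TMM, quasi-likelihood, all 4 conditions in 1 fit), after a test on simulated data. DESeq2 1.42.0 was an alternative. Where a group had no UMI, a fold is a bound against 3 counts over the group. Intervals are exact at 95%. Samples with the same replicate number came from 1 pool, and their β-cell deviations from the group means correlated at 0.653 to 0.750 over the 6 pairs of conditions (median 0.717), so the replicate number was used as a block in a second fit. Scaling by total UMIs moved the median of all genes by up to −0.52 (α-cells, cytokines against untreated), so changes are relative to TMM. The 8 members, the marker lists and the complement list were chosen with earlier results of these data known. All 8 members are named, with called genes of the complement list (1 gene of the list is not reported here) and the 3 genes most like each member.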

Additional observations from a re-analysis of the deposited data

Results flagged for a closer look

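These results stood out because the response to cytokines, or to NMMA, differed between cell classes, or because signal appeared in cells that no comparison used. *C3* rose more in non-β endocrine cells than in β-cells, by 4.61 on the log2 scale, on 1 untreated UMI. *Cfb* rose less in macrophages than in β-cells, by −3.31, on 0 and 11 untreated UMIs in macrophages. That difference changed sign without untreated replicate 2, and the macrophage change itself was not called (edgeR adjusted p = 0.752). *Serping1* rose more in endothelial cells than in β-cells, by 4.31, and by −0.53 (adjusted p = 0.261) once an unnamed cluster without cytokine-treated cells, at 454 and 462.5 CPM of *Serping1* untreated, was added to the endothelial cells. For *Cfb*, the step from cytokines to cytokines with NMMA was 1.69 higher on the log2 scale in non-β endocrine cells than in β-cells, as the mean of the 2 replicates; the replicates of each class moved the same way, opposite between the classes, and this difference was not tested because *Cfb* was chosen for it.

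Cells kept but placed neither among the endocrine cells nor in the 3 other classes (65 and 269 cells with cytokines) also carried complement UMIs with cytokines. Their mean level was 67.3 CPM for *Cfb* (61.4 and 73.2, against 0.768 and 7.08 untreated), 13.1 CPM for *C2* (21.3 and 4.86, against 1.15 and 1.77) and 49.8 CPM for *C1s1* (87.4 and 12.2, against 1.92 and 1.42). The cells outside the classes hold several types, in other proportions with and without cytokines. Untreated, the ductal cluster 8 held 475 of the 870 in replicate 2. The unnamed cluster 109, with *Mafa* and *Ins1* among its leading genes, held 71 of the 178 in replicate 1. The levels above thus compare different cells. Most of those with cytokines lay in clusters of low depth. Clusters 3, 4, 20 and 24 held 14, 15, 8 and 18 of the 65 cells of replicate 1. In replicate 2 they held 41, 213, 9 and 1 of the 269. Relative to the library median, the median UMIs of cells in these clusters were 0.0617, 0.0903, 0.0631 and 0.106. The levels are of summed UMIs, so deeper cells weigh more in them. In cytokines replicate 1 the ductal cluster 23, with a relative median of 0.578, held 6 of the 65 cells. The part of each cluster in these levels was not tested.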

How the results depend on the processing

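With each library left out in turn, the number of members called for cytokines against untreated ranged from 4 to 4 in β-cells, 2 to 5 in α-cells, 3 to 5 in δ-cells, 4 to 4 in non-β endocrine cells, 0 to 1 in macrophages, 2 to 2 in endothelial cells and 0 to 1 in mesenchymal cells. For cytokines with NMMA against cytokines the ranges were 0 to 1 in β-, α- and δ-cells and 0 to 3 in non-β endocrine cells. For cytokines with NMMA against untreated they were 5 to 5, 3 to 6, 4 to 5 and 4 to 5 in those classes, 0 to 1 in macrophages, 2 to 2 in endothelial cells and 1 to 2 in mesenchymal cells. For differences from β-cells they were 0 to 1 (non-β endocrine), 0 to 2 (macrophages), 1 to 1 (endothelial) and 0 to 1 (mesenchymal). Where an arm kept 1 library, it was assumed to vary like the other groups.

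For cytokines with NMMA against cytokines, total-UMI scaling called 3 members in α-cells in place of 1, no filter on low counts called 2 in α-cells and 1 in δ-cells in place of 0, and DESeq2 called 1 in non-β endocrine cells in place of 3. With the replicate as a block, 2 were called in α-cells and 1 in δ-cells for that contrast, and in macrophages 2 in place of 1 both for cytokines and for cytokines with NMMA against untreated. For cytokines with NMMA against untreated, no filter called 4 in endothelial cells in place of 2 and 3 in mesenchymal cells in place of 1, where DESeq2 called 2. Total-UMI scaling called 2 differences of non-β endocrine cells from β-cells in place of 1. Estimates that changed sign with 1 library left out were those of *Cfb* in macrophages (−0.50 without cytokines replicate 2, to 6.55) and of the macrophage difference in *Cfb* (−4.05, to 3.69 without untreated replicate 2, which left no untreated *Cfb* UMI in macrophages). With the unnamed cluster added to the endothelial cells (chosen after the data were seen), 0 members differed from β-cells in place of 1, and the *Serping1* difference went from 4.31 to −0.53; the 2 members called for cytokines stayed called, and that of *Cd93* in the complement list was lost (adjusted p = 0.0686). The other causes were not tested.

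The 93 single-gene results were the calls of the main fits, *Cfb* with cytokines (with or without NMMA) against untreated, and β-cell *Cd59a* with cytokines. Of these, 82 were past the threshold, and the block moved the other 11 past it and ended none. DESeq2 ended 12 calls and added 7, total-UMI scaling ended 8 and added 1, removing the doublets ended 4, and clustering with the complement genes ended none. Outside the 93, the block also moved the α-cell *C3* step with NMMA past the threshold (edgeR adjusted p from 0.0558 to 0.00319). It did the same for the δ-cell *Serping1* step (0.210 to 0.00192) and for α-cell *Cd59a* with cytokines and NMMA against untreated (0.0544 to 0.0301). Deeper class sums would bear most on *Cd55* and *C4b* and on the mesenchymal and endothelial classes, which had 13 to 50 and 14 to 38 cells per library.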

Other observations

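Ductal-like cells, which formed no tested class, were the other cells with *C3*: 525.5 CPM in untreated replicate 1 (106 UMIs in 28 cells), 58.2 in untreated replicate 2 (26 UMIs in 478 cells, a cluster of low depth), 249.9 with cytokines and NMMA in replicate 1 (32 UMIs in 12 cells) and 222 with NMMA alone in replicate 2 (19 UMIs in 20 cells). The other 4 libraries held fewer than 10 ductal-like cells each, so no comparison between conditions was made. Over all cells outside the classes *C3* was at 425 and 9.76 CPM with cytokines and 41.8 and 13.1 untreated, from different mixes of cells.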
